A study of Nicotiana tabacum with 32 samples.

Results

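PME1 and STUGE51 are the potato genes of a pectin methylesterase and of a UDP-sugar epimerase, and their clones were followed across 2-colour arrays of tobacco cells silenced for the mitogen-activated protein kinase SIPK. The clones were picked by name, as those to which the platform's probe name table gives exactly the symbol PME1 or STUGE51. This gave 3 clones, or 6 spots, of the 15360 clones and 32448 spots of the array. PME1 had 1 clone, spotted as probes 135705 and 136549. STUGE51 had 2, clone A (probes 153358 and 154202) and clone B (probes 161624 and 162468), which carry different sequence records in the name table. Both spots of a clone were averaged and each clone was kept apart.

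Plant cells sit in a wall of cellulose, hemicelluloses and pectin. A UDP-galactose 4-epimerase such as STUGE51 interconverts UDP-glucose and UDP-galactose, and so feeds galactose into pectin side chains and other wall polymers; in potato it is 1 of 2 such epimerases named on the array, the other being STUGE45. Homogalacturonan, the main pectin, is laid down with methyl esters, and pectin methylesterases such as PME1 remove them in the wall, which frees carboxyl groups that can bind calcium and releases methanol.

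The cells were dark-grown suspension cultures of Nicotiana tabacum cv. Xanthi, either Xanthi SIPK-Ri, in which SIPK is silenced by RNA interference, or wild-type Xanthi. All had been given fresh medium 3 days before and were kept at 25 °C. Of the arrays, 24 paired silenced with wild-type cells under the same condition, in 8 groups of 3. In the biotic set these were untreated cells at 0 h, harpin (an elicitor protein, with P.syringae as its source in the labels) at 4 h and 8 h, and megaspermin (a Phytophthora elicitor, labelled P.megasperma) at 4 h and 8 h. In the abiotic set they were cells at 0 h, and cells at 4 h and 8 h of xanthine oxidase, an enzyme that makes superoxide from xanthine; all 3 abiotic groups had a preincubation of 30 min with xanthine, in both genotypes. A further 6 arrays set wild-type cells at 4 h of harpin or of megaspermin against untreated wild-type cells at 0 h, 3 arrays for each elicitor. The labels of these last megaspermin arrays name P.syringae as its source, so that the elicitor was the same was assumed from its name. There were also 2 single arrays with the dyes exchanged, for the abiotic control and for wild-type harpin.

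Each genotype was a single pooled culture divided into volumes of 10 ml, so replicate arrays show the spread between volumes of that pool, and the labels do not say whether the silenced culture came from more than 1 transformed line. Untreated cells were hybridised at 0 h only, so the effect of an elicitor and that of the hours in culture cannot be told apart. In such bulk samples fewer cells that express a gene and less RNA per cell cannot be told apart either. A log2 ratio above 0 likely means more transcript in silenced than in wild-type cells, or in treated than in untreated ones. The labels call the silenced or treated cells the query and the wild-type or untreated cells the reference, but no label states the ratio, the sample titles name wild type first, and the label of the exchanged abiotic array calls wild type the query while its values correlated positively (0.64 to 0.71) with those of the standard arrays. The lowest correlation between any pair of the 24 genotype arrays was 0.108. The files give ratios without intensities, so no level of a gene and no marker of the cell type could be read. None of the named clones was recognised as SIPK, and the extent of silencing was not analysed here. Arrays held a value for 25.5% to 65.0% of the spots. Since tobacco RNA was hybridised to potato clones, transcripts of related tobacco genes may also have bound a clone.

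The symbols were put forward after the group means of these arrays had been seen, among them the low value of STUGE51 at 4 h of harpin. The levels and differences of the 3 clones are therefore a description. Where a clone is said to be called, limma's fit over all clones gave an adjusted p under 0.05 in that comparison, and the share of all tested clones called in the same direction is given beside it. Values are mean log2 ratios ± the standard error of that fit, with n the number of arrays.

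STUGE51 read lower in silenced than in wild-type cells in most conditions. Of the 8 genotype means, 7 were called lower in clone A and 6 in clone B, and none was called higher. Group by group, 11.3% to 22.8% of all tested clones were called lower. The clones were chosen with such values known, so nothing is read from this count. Clone A read below 0 on 24 of 24 genotype arrays, from -1.84 to -0.13 with a median of -0.68. Clone B read below 0 on 23 of 24, from -1.59 to 0.0095 with a median of -0.67. The exception was replicate 2 of xanthine oxidase at 8 h, where the spots of clone B disagreed, at -0.71 and 0.73. Averaged over the 8 groups clone A stood at -0.86 ± 0.056 (n = 24), a level 1.81-fold lower in silenced cells, and clone B at -0.76 ± 0.054 (n = 24), 1.69-fold lower. Of all tested clones 37.0% were called lower in this average. Array by array the clones differed by a median of 0.245 on the log2 scale over 29 arrays, and by at most 0.76.

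**Figure D1:**
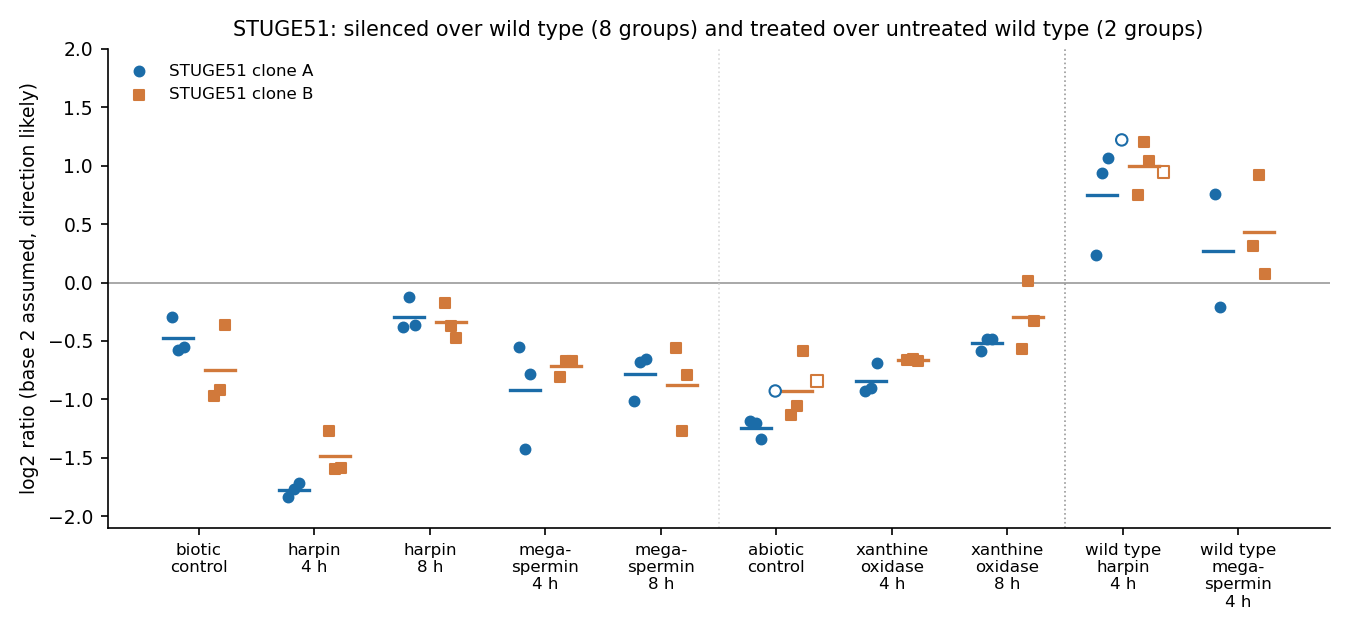
Log2 ratios of the STUGE51 clones on each array, silenced over wild-type cells in the first 8 groups and treated over untreated wild-type cells in the last 2. Filled points are standard arrays, open points the single dye-exchanged arrays and short lines the means; harpin at 4 h has the lowest genotype values, from -1.84 to -1.27, and wild-type values above 0, from 0.24 to 1.21.

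The lowest ratios were those at 4 h of harpin. Clone A read -1.84, -1.77 and -1.72 there, against -0.29, -0.58 and -0.55 in the biotic control. Clone B read -1.27, -1.59 and -1.59 at 4 h of harpin, against -0.97, -0.92 and -0.36 in the control. In both clones every array at 4 h of harpin lay below every array of the control and of each other genotype group, except that clone B read -1.27 both on the highest harpin array and on the lowest array of megaspermin at 8 h. The mean was -1.77 ± 0.16 (n = 3) for clone A, 3.42-fold lower in silenced cells, and -1.48 ± 0.15 (n = 3) for clone B, 2.80-fold lower. Both were called, as were 16.3% of all tested clones. Counted from the lowest value, clone A was at rank 42 and clone B at rank 79 of 8503 tested clones.

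By 8 h of harpin the ratio lay much closer to 0. Clone A read -0.38, -0.13 and -0.36 and clone B -0.17, -0.37 and -0.47, and neither mean was called lower (-0.29 ± 0.16 and -0.34 ± 0.15, n = 3 each), while 22.8% of all clones were called lower. The lack of a call depended on the setting: clone B was called lower with the group fitted alone (-0.34), the first spot alone (-0.45) or array weights (-0.36), and clone A with the second spot alone (-0.31). For clone A this was the highest of the 8 genotype means, and for clone B the highest but for xanthine oxidase at 8 h. Set against 4 h, the ratio at 8 h was higher by 1.48 ± 0.22 in clone A and by 1.15 ± 0.22 in clone B (n = 6). Both differences were called, against 10.4% of all clones called higher. In clone A the difference was at rank 39 from the top of 7675 clones. Against the biotic control, 8 h of harpin differed by 0.18 ± 0.22 in clone A and 0.41 ± 0.22 in clone B (n = 6), and neither difference was called, while 17.8% of all clones were called in either direction. With array weights clone B reached 0.47 and was called.

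With megaspermin the ratio stayed below 0 at both times. At 4 h clone A read -0.55, -1.42 and -0.78, a wide spread, and clone B -0.81, -0.67 and -0.68. At 8 h clone A read -1.02, -0.68 and -0.66 and clone B -0.56, -1.27 and -0.79. All 4 means were called, from -0.92 to -0.72 (16.1% of all clones were called lower at 4 h and 18.6% at 8 h), and none was called different from the biotic control. That difference was -0.44 ± 0.22 and 0.032 ± 0.22 at 4 h in clones A and B, and -0.31 ± 0.22 and -0.12 ± 0.22 at 8 h (n = 6), beside 17.2% of all clones called in either direction at 4 h and 25.8% at 8 h. At 4 h the ratio with harpin was lower than with megaspermin by -0.86 ± 0.22 in clone A and by -0.77 ± 0.22 in clone B (n = 6), both called, as were 8.98% of all clones in that direction. The call of clone A was lost without replicate 1 of megaspermin at 4 h (-0.67) and that of clone B without replicate 2 of harpin at 4 h (-0.71) and with the first spot alone (-0.63).

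In untreated cells of the biotic set the means were -0.47 ± 0.16 for clone A and -0.75 ± 0.15 for clone B (n = 3 each), both called, as were 14.8% of all clones. In clone A the call was lost without replicate 2 (-0.42) or replicate 3 (-0.44) of this control, and with a dye term (-0.28). Every change against this control rests on the same 3 arrays.

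After xanthine the ratio was lowest at 0 h. In the abiotic control clone A read -1.19, -1.21 and -1.34 and clone B -1.14, -1.06 and -0.58. At 4 h of xanthine oxidase clone A read -0.93, -0.91 and -0.69 and clone B -0.66, -0.66 and -0.67. At 8 h clone A read -0.59, -0.49 and -0.48 and clone B -0.57, 0.0095 and -0.33. In clone A the 3 groups did not overlap, in the order control, 4 h, 8 h, whereas in clone B the control overlapped 4 h and 8 h lay above both, its lowest array (-0.57) just above the highest of the control (-0.58). The means of the control and of 4 h were called in both clones (11.3% and 18.1% of all clones were called lower), and that of 8 h in clone A only (20.9%), where it was lost without replicate 1 of that group (-0.48), with the first spot alone (-0.43) and with a dye term (-0.32). In clone B the mean at 8 h (-0.30) was called with the first spot alone (-0.57), and stood at -0.45 without replicate 2 and at -0.16 without replicate 1, neither called. The difference of 8 h from the control was 0.73 ± 0.22 in clone A and 0.63 ± 0.22 in clone B (n = 6). Neither was called, and 0.302% of all clones were called in either direction. Both were called with array weights (0.72 and 0.69) and with arrays scaled to a common spread (1.30 and 1.14). In clone B the call of the abiotic control was lost with the second spot alone (-0.49). With the dyes exchanged, the abiotic control read -0.93 in clone A and -0.84 in clone B, each below 0 like the standard arrays.

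Ordered by mean, both clones ran from harpin at 4 h at the low end to the abiotic control next, and ended with harpin at 8 h among the 2 highest. In clone A the arrays of harpin at 4 h were apart from those of the abiotic control, and those of megaspermin at 8 h (-1.02 to -0.66) from those of xanthine oxidase at 8 h (-0.59 to -0.48). All other neighbours in the order of clone A overlapped. In clone B harpin at 4 h was apart from the abiotic control, the neighbours from the abiotic control to megaspermin at 4 h overlapped, the arrays of megaspermin at 4 h and xanthine oxidase at 4 h were apart only in the third decimal, xanthine oxidase at 4 h was apart from harpin at 8 h, and the last pair overlapped.

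In wild-type cells STUGE51 rose with harpin. At 4 h clone A read 0.24, 0.93 and 1.06 and clone B 0.75, 1.21 and 1.04, all above 0. The means were 0.75 ± 0.16 (1.68-fold higher than untreated) for clone A and 1.0 ± 0.15 for clone B (n = 3 each). Both were called, and so were 26.9% of all clones in this direction. In the harpin group clone A had a value at only 1 of its spots. With the dyes exchanged the clones read 1.22 and 0.95. With megaspermin the arrays disagreed. Clone A read 0.76 and -0.21 with the remaining array empty (0.27 ± 0.19, n = 2, not called, but 0.55 and called with array weights), and clone B read 0.32, 0.92 and 0.07 (0.44 ± 0.15, n = 3). Clone B was called, as were 23.3% of all clones, but without replicate 2 it stood at 0.19 and was not. Harpin minus megaspermin came to 0.47 ± 0.25 (n = 5) in clone A and 0.56 ± 0.22 (n = 6) in clone B. Neither was called, beside 13.9% of all clones in either direction; without replicate 2 of megaspermin clone B reached 0.81 and was called.

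No array set treated against untreated silenced cells, but 3 measured ratios chain to that comparison: the wild-type response, plus the genotype effect at 4 h of the elicitor, minus the genotype effect in the biotic control. For harpin this gave -0.55 ± 0.27 in clone A and 0.26 ± 0.27 in clone B (n = 9) for silenced cells, against 0.75 and 1.0 in wild-type cells. The clones thus lay on opposite sides of 0 in silenced cells, and neither was called, nor had an unadjusted p under 0.05, while 34.4% of all tested clones were called in either direction. The difference between these responses of silenced and wild-type cells was -1.30 ± 0.22 in clone A and -0.73 ± 0.22 in clone B (n = 6). It was called in both clones and in 7.81% of all clones in this direction. In clone B the call was lost without replicate 3 of the biotic control (-0.54) and without replicate 2 (-0.68) or replicate 3 (-0.68) of harpin at 4 h. For megaspermin the chained value in silenced cells was -0.17 ± 0.30 in clone A (n = 8) and 0.47 ± 0.27 in clone B (n = 9), neither called nor with an unadjusted p under 0.05 (20.6% of all clones were called), against 0.27 and 0.44 in wild-type cells. The chained values also rest on the likely direction of the genotype ratios and of the wild-type ratios. Only the genotype ratios were turned here, so the direction of the wild-type ratios was not tested. With the sign of every genotype ratio turned, an alternative chosen after seeing the data, harpin gave 2.05 ± 0.27 in clone A and 1.73 ± 0.27 in clone B, both called higher (39.6% of all clones were called). Megaspermin then gave 0.72 ± 0.30 in clone A and 0.40 ± 0.27 in clone B, neither called (42.7%).

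**Figure D2:**
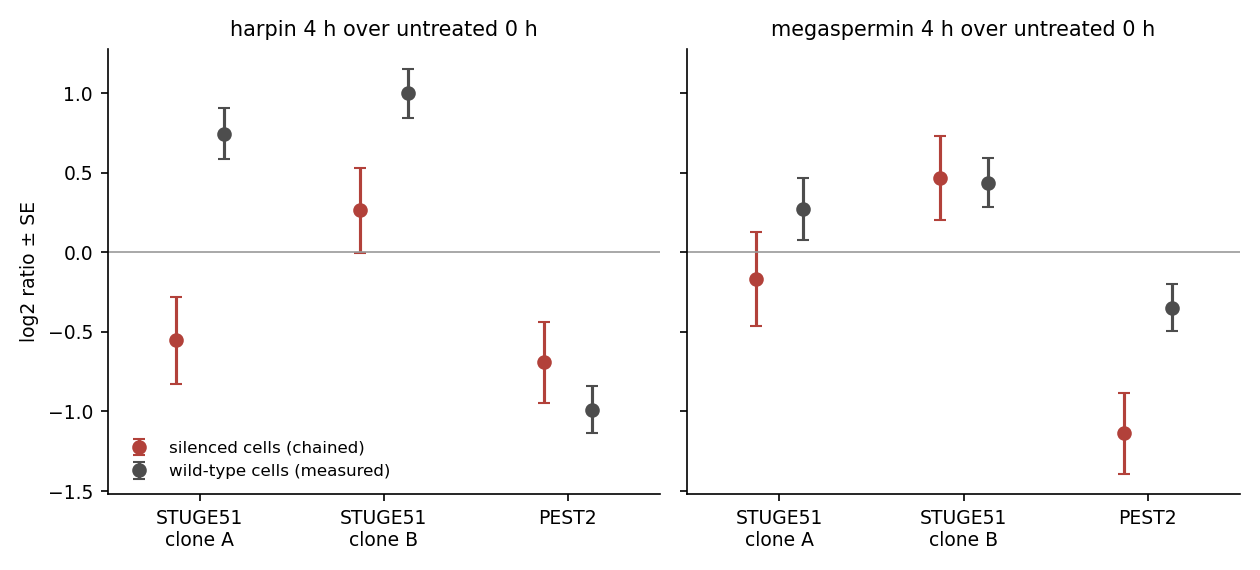
Log2 ratio of cells at 4 h of an elicitor over untreated cells at 0 h, with standard errors, for silenced cells (chained from 3 ratios taken in their likely direction) and wild-type cells (measured directly). With harpin the STUGE51 clones stood at -0.55 and 0.26 in silenced cells and at 0.75 and 1.0 in wild-type cells; PEST2, a pectin methylesterase, was below 0 in both genotypes.

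PME1 could be followed in 4 of the 10 groups. It had a value on 3 of 3 arrays in both controls and both xanthine oxidase groups, but on 1 of 3 in each elicitor group of both kinds, where 28.7% to 45.2% of all clones had a value on all 3 arrays.

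PME1 was lower in silenced cells in the xanthine groups and near 0 in the biotic control. In the abiotic control it read -0.58, -1.06 and -1.05 and averaged -0.89 ± 0.15 (n = 3), 1.86-fold lower in silenced cells. At 4 h of xanthine oxidase it read -1.18, -1.30 and -1.0 and averaged -1.16 ± 0.15 (n = 3), 2.23-fold lower. At 8 h it read -1.26, -0.60 and -1.19 and averaged -1.02 ± 0.15 (n = 3), 2.02-fold lower. All 9 xanthine arrays were below 0, and all 3 means were called, beside the shares of 11.3%, 18.1% and 20.9% of all clones given above. The 3 groups overlapped, and neither 4 h nor 8 h was called different from the abiotic control (-0.26 ± 0.21 and -0.12 ± 0.21, n = 6; 0.0563% of all clones were called at 4 h). The exchanged array of the abiotic control read -1.19, also below 0.

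In the biotic control PME1 read 0.0925, 0.0735 and 0.41, a mean of 0.19 ± 0.15 (n = 3) that was not called. The single readings of the elicitor groups were 0.24 and 0.33 at 4 h and 8 h of harpin and 0.19 and 0.098 at 4 h and 8 h of megaspermin. All 7 readings of the biotic set, averaged over spots, were thus above 0 and all 9 of the abiotic set below it. The biotic readings were small beside the spread of the spots, which differed by a median of 0.308 over 16 arrays. In the biotic control the spots lay on both sides of 0 on replicate 1 (0.271 and -0.086) and replicate 2 (-0.017 and 0.164). The readings at 8 h of harpin and 8 h of megaspermin came from 1 spot each. The biotic control minus the abiotic control was 1.09 ± 0.21 (n = 6), a difference that was called; 1.87% of all tested clones were called in this direction. By size it was at rank 60 from the top of 10223 clones. In wild-type cells the single readings were -0.44 with harpin and -0.23 with megaspermin, with no replicate to judge them by.

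**Figure D3:**
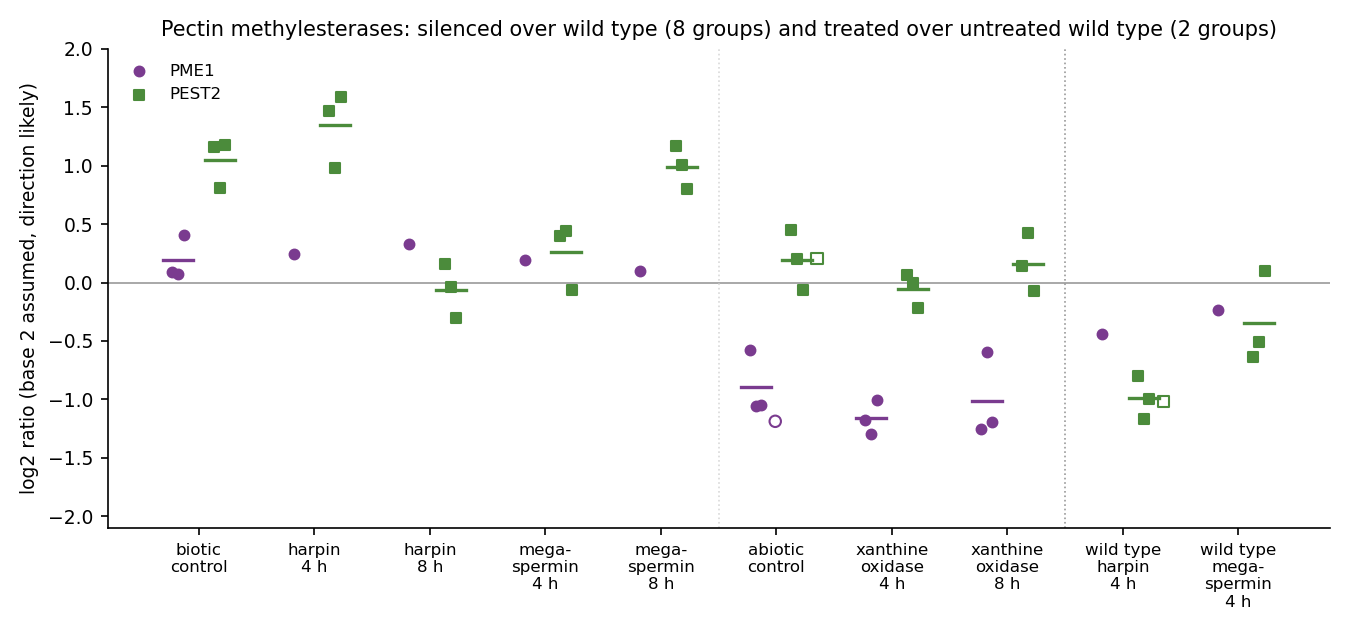
Log2 ratios of PME1 and of PEST2, another potato pectin methylesterase, on each array, silenced over wild-type cells in the first 8 groups and treated over untreated wild-type cells in the last 2. Filled points are standard arrays, open points the dye-exchanged arrays and short lines the means of groups with at least 2 values; PME1 was below 0 on all 9 xanthine arrays and above 0 on all 7 biotic genotype arrays with a value.

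Across the 10 group means the 3 clones were called 19 times in 24 tested, 16 times lower, all in genotype groups, and 3 times higher, all STUGE51 in wild-type cells. The 20 tested genotype means gave 16 calls, all lower. The shares of all clones called lower in the 8 genotype groups, given above, ran from 11.3% to 22.8%, and the clones were chosen for such values, so nothing is read from this count.

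A list of cell wall and UDP-sugar enzymes, written by function, matched only 2 further clones, STUGE45 and PEST2, which are described here with their own values. STUGE45, the other epimerase, was called lower in the biotic control (-0.37 ± 0.14), at 4 h of megaspermin (-0.74 ± 0.14), in the abiotic control (-1.06 ± 0.14) and at 4 h (-0.72 ± 0.14) and 8 h (-0.90 ± 0.14) of xanthine oxidase, and higher at 8 h of megaspermin (0.50 ± 0.14; n = 3 each). Of all clones, 14.8%, 16.1%, 11.3%, 18.1% and 20.9% were called lower in those groups, in that order, and 18.6% higher at 8 h of megaspermin. At 4 h of harpin, where STUGE51 was lowest, STUGE45 read -0.15, -0.35 and 0.16 (-0.12 ± 0.14), and it was not called. With the dyes exchanged its abiotic control read -0.34, against -0.93, -1.15 and -1.12 on the standard arrays. With a dye term fitted, the calls in the biotic control (-0.0088), at 4 h of megaspermin (-0.37) and at 4 h of xanthine oxidase (-0.36) were lost. The call in the biotic control was also lost with any of its arrays left out (-0.42 to -0.33), and that at 8 h of megaspermin without its replicate 2 (0.37). In wild-type cells it had no value with harpin and stood at 0.59 ± 0.17 (n = 2) with megaspermin. The megaspermin arrays read 0.91 and 0.275, the latter from 1 spot. Their mean was called, as were 23.3% of all clones in this direction, but the call was lost with the group fitted alone.

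PEST2 was higher in silenced cells of the biotic control, at 1.16, 0.81 and 1.18 (1.05 ± 0.15), at 4 h of harpin (1.35 ± 0.15) and at 8 h of megaspermin (0.99 ± 0.15, n = 3 each), all called. The shares of all clones called higher in these groups were 14.2%, 15.0% and 18.6%. At 8 h of harpin, 4 h of megaspermin and in the 3 xanthine groups it lay between -0.06 and 0.26 and was not called. In wild-type cells it fell with harpin, at -0.80, -1.17 and -1.0 (-0.99 ± 0.15, n = 3), and read -1.02 with the dyes exchanged. Its chained value in silenced cells was -0.69 ± 0.26 with harpin, where wild-type cells read -0.99, and -1.14 ± 0.26 with megaspermin, where wild-type cells read -0.35 (n = 9). Both chained values were called, beside 34.4% of all clones with harpin and 20.6% with megaspermin in either direction. The harpin value lost its call without replicate 2 of harpin at 4 h (-0.51), replicate 1 (-0.64) or 3 (-0.63) of the biotic control, or replicate 2 (-0.60) or 3 (-0.69) of wild-type harpin, and with array weights (-0.52), the second spot alone (-0.63) or scaled arrays (-0.60). The wild-type megaspermin value was not called, but stood at -0.57 and was called without its replicate 3, at -0.20 without its replicate 1, and was called in 5 of 9 other settings. With the genotype ratios turned, the chained values of PEST2 were -1.29 with harpin, called, and 0.44 with megaspermin, not called. Of all clones 39.6% and 42.7% were then called.

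The means of PME1, PEST2, STUGE45 and STUGE51 clone A lay higher in the biotic than in the abiotic control. For PEST2 the means were 1.05 and 0.19 (difference 0.85 ± 0.21, n = 6) and for STUGE45 -0.37 and -1.06 (0.69 ± 0.19, n = 6), and both differences were called. Of all tested clones 1.87% were called in this direction. STUGE51 clone A stood at -0.47 in the biotic and -1.24 in the abiotic control, with no overlap (0.77 ± 0.22, n = 6), and clone B at -0.75 and -0.93 with overlap (0.18 ± 0.22, n = 6); neither was called. The sign in clone B turned without replicate 3 of the biotic control (-0.018) and with the second spot alone (-0.13). Clone A was at rank 201 from the top of 10223 clones. The call of PEST2 was lost without replicate 1 or 3 of the biotic control or replicate 2 or 3 of the abiotic control (0.72 to 0.85), and that of STUGE45 with any array of these controls left out (0.64 to 0.76) or without replicate 1 of megaspermin at 8 h (0.69). The STUGE45 call was also lost with the first spot alone (0.50), the second spot alone (0.78) and a replicate block (0.69).

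**Figure D4:**
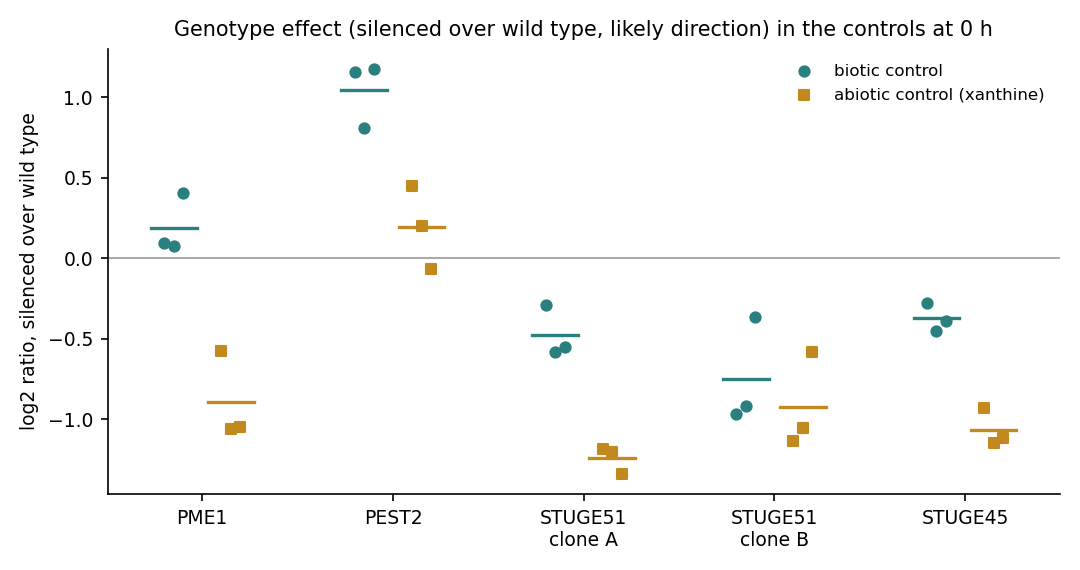
Log2 ratio of silenced over wild-type cells on each array of the biotic control (untreated, 0 h) and the abiotic control (after xanthine, 0 h), with short lines for the means of 3 arrays. PME1 averaged 0.19 in the biotic and -0.89 in the abiotic control, and the groups overlapped only in STUGE51 clone B.

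Enzymes and carriers of sugar and starch metabolism, chosen by symbol, made a list of 8 clones of 6 genes, of which 3 to 7 were tested in each group. The shares of all clones called higher in the genotype groups were 14.2% in the biotic control, 15.0% and 23.2% at 4 h and 8 h of harpin, 16.5% and 18.6% at 4 h and 8 h of megaspermin, 11.4% in the abiotic control, and 16.7% and 17.7% at 4 h and 8 h of xanthine oxidase; the lower shares of the wild-type groups were 26.6% with harpin and 22.8% with megaspermin. Called higher and lower in the list were 3 and 0 of 6 in the biotic control, 1 and 2 of 6 at 4 h of harpin, 1 and 0 of 4 at 8 h of harpin, 1 and 0 of 6 at 4 h of megaspermin, and 2 and 0 of 5 at 8 h of megaspermin. They were 1 and 1 of 7 in the abiotic control, 2 and 1 of 6 at 4 h and 1 and 0 of 6 at 8 h of xanthine oxidase, 2 and 1 of 4 in wild-type harpin and 2 and 0 of 3 in wild-type megaspermin. List medians lay between -0.19 and 0.56, and those of all tested clones between -0.08 and 0.06. At 4 h of harpin the alpha-amylase AMYA1 (-0.92 ± 0.12) and the sucrose transporter SUT2 (-0.61 ± 0.15, n = 3 each) were called lower, alongside STUGE51. SUT2 read -0.26, -1.15 and -0.41 there, the -1.15 from 1 spot. The granule-bound starch synthase GBSS was called higher in 1 of its clones (0.46 ± 0.14, n = 3), which stood at 1.64 in the biotic control. The other GBSS clone lay below 0 at 4 h of harpin (-0.27, n = 2) and was not called. AMYA1 was read from 1 clone, as its other clone had no value on any array. Against the biotic control, the ratio at 4 h of harpin was called lower in 4 of 6 tested clones of the list and higher in 0. Of all clones 7.81% were called lower. From 4 h to 8 h of harpin the ratio was called higher in 3 of 4 and lower in 0, beside 10.4% of all clones called higher. A lower ratio at 4 h of harpin and its return by 8 h were thus not particular to STUGE51.

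By the correlation of group means, the named clones most like STUGE51 were the same 3 for both clones, out of 676 compared. These were LOC102577512 (0.87 with clone A and 0.94 with clone B over 10 groups), the acid invertase PAIN-1 (0.86 and 0.89 over 9 groups) and LOC102577515 (0.84 and 0.88 over 10 groups). The least alike were LOC102601989 (-0.94 and -0.95) for both, LOC102604729 for clone A (-0.93) and LOC102587260 for clone B (-0.94). All group means come from the same arrays and the wild-type responses weigh heavily among them, so these are descriptions. PAIN-1 itself was higher in silenced cells in 7 of the 8 genotype groups and stood at 0.034 ± 0.14 (n = 3) at 4 h of harpin, so a like order of values went with levels on the other side of 0. PME1, with 4 groups, could not be compared this way.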

How the data were processed

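Total RNA of 2 cell populations was hybridised to each of 32 cDNA arrays. The authors deposited 1 table of log2 ratios; base 2 was assumed, and how they were normalized, with which software and in which direction, is not given in the sources used here. Samples were grouped by title. Duplicate spots lay at fixed offsets (905 of 905 named clones) and were averaged; 1728 unpaired spots were left out. The deposited name table gave 815 clones a single symbol.

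R 4.3.3 with limma 3.58.1 fitted a mean per group over the 30 standard arrays in 1 model, with variances moderated by empirical Bayes (prior df 8.02). Tests required values on at least 2 of 3 arrays in each group; p-values were adjusted by Benjamini-Hochberg within each contrast, at 0.05. The script was tested on simulated data. Named were the members, both lists' tested clones where described, and, by correlation over at least 8 groups, the 3 most and 2 least alike clones. The members and lists were chosen with earlier results of these data known. Python 3.11.15 drew the figures. Alternatives were scaling, centring, array weights, a dye term, 3 of 3 arrays, single spots, groups fitted alone, a replicate block, each array left out and, for the chained responses, the genotype ratios turned.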

Additional observations from a re-analysis of the deposited data

Results flagged for a closer look

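Differences between groups in the size of the genotype effect were called by limma for 9 of the values reported, by a test of the difference itself. STUGE51 stood lower at 4 h of harpin than in the biotic control in clone A (-1.30) and clone B (-0.73), lower at 4 h of harpin than of megaspermin (-0.86 and -0.77), and higher at 8 h than at 4 h of harpin (1.48 and 1.15). These 6 differences share the arrays of harpin at 4 h, so they are not separate observations. Both symbols were put forward after the group means had been seen, among them the low STUGE51 value at 4 h of harpin. The calls of the members are therefore a description. Of all clones, 7.81%, 8.98% and 10.4% were called in the same direction in the STUGE51 comparisons, in that order. PME1 (1.09), PEST2 (0.85) and STUGE45 (0.69) stood higher in the biotic than in the abiotic control, where 1.87% of all clones were called in this direction. The calls of PEST2 and STUGE45 were lost with some arrays left out, and that of STUGE45 also with either spot alone. Per the labels the abiotic cells had been preincubated with xanthine; any other difference between the sets cannot be told apart from it. Groups of 3 arrays are too small for a test of single outlying arrays.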

How the results depend on the processing

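Shares of all clones called were counted only in the main fit and with the genotype ratios turned. The members were chosen with their values known, so the counts of calls in this section are a description. Among the 60 member values tested, 28 were called and none of the 28 changed sign in any setting run. Of these, 20 kept the call in all 9 other settings, and 1 more, STUGE51 clone A with wild-type harpin, in the 8 where it could be tested; 22 kept it with each of the 30 arrays left out. The group means gave 19 calls, with 16 of 24 under a dye term, 17 of 22 with the second spot alone, 21 with array weights and 18 to 19 with an array left out. The changes of the genotype effect gave 7, with 12 under array weights and 5 to 10 with an array left out. The responses of silenced cells gave 0, with 1 (STUGE51 clone A, harpin) when arrays were scaled to a common spread, 2 when the genotype ratios were turned (chosen after seeing the data) and 0 with any array left out. Turning changed the sign of clone A with harpin (2.05) and megaspermin (0.72) and of PEST2 with megaspermin (0.44). The means over 8 groups ran from -0.88 to -0.82 (clone A) and -0.78 to -0.73 (clone B) with an array left out, and from -0.96 to -0.66 and -0.88 to -0.62 over the 9 other settings. In the list of cell wall enzymes the 6 calls lower became 3 with a dye term (4 to 5 higher and 5 to 7 lower with an array left out). In the sucrose and starch list the 16 calls higher became 9 with the second spot alone, and the 5 calls lower 3 with the first spot alone, 2 with a dye term and 2 with the replicate block (14 to 16 higher and 3 to 6 lower with an array left out). The cause of these shifts was not tested. With replicate number as a block, the members kept 19 calls in the group means and 7 in the changes. Same-numbered arrays of different groups had a median correlation of deviations of -0.041, against 0.017 for other pairs. Both were widely spread, from -0.54 to 0.46 and from -0.54 to 0.52. No pairing by number was seen in the medians, but a weak one would not show at this spread. The call of STUGE51 clone B for harpin against the control was lost with the first spot alone and with scaled arrays, that of clone A for harpin against megaspermin with the groups fitted alone, and that of clone B for wild-type megaspermin in 4 settings. The difference of clone A between the controls, not called, was called in 7 of 9 (1.21 with scaled arrays) and without any of 6 arrays of other groups. The block also ended 2 calls of STUGE45, in the biotic control and between the controls. Without intensities, signal over background was not analysed here.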

Other observations

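XEGIP1, named for an inhibitor of xyloglucan-degrading endoglucanases, is another cell wall symbol on the array; it is outside the lists and was chosen with the data known. It was tested in 2 groups, the abiotic control (0.0305 ± 0.15, n = 3) and megaspermin at 8 h (0.44 ± 0.19, n = 2), and was called in neither.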
